A study of Rattus norvegicus with 32 samples.

Results

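Transcripts of 10 genes of antioxidant defence were followed in rat gastrocnemius, the large calf muscle, across genotype and ambient temperature. The set held the quinone reductase Nqo1, the haem oxygenase Hmox1, the glutathione genes Gclc, Gclm and Gpx1, the thioredoxin genes Txnrd1 and Prdx1, the superoxide and peroxide enzymes Sod2 and Cat, and the NADPH oxidase Nox4. Members were taken by gene symbol, and all 10 were present among the 12901 genes of the deposited table and passed the filter on low counts, so none was lost. The set was put together with earlier results of these data in view, and Nqo1 was chosen by its measured difference between the genotypes at each temperature, so its genotype values are given as a description with no test. The libraries fell into 4 groups: 9 of UCP1 knockout (UCP1 KO) rats after 4 °C exposure (KO_4C), 7 of control rats after 4 °C exposure (control_4C), 9 of UCP1 KO rats at room temperature (KO_RT) and 7 of control rats at room temperature (control_RT). UCP1 is the proton carrier through which brown fat makes heat. All rats were male, wild type in the control groups, 20 weeks of age and fed chow, and the cold lasted 2 weeks. The labels give neither the strain nor the way the knockout was made, and they do not say whether cold and room-temperature samples came from separate animals. Lexogen QuantSeq libraries (500 ng of RNA, 50 bp reads) count tags at the 3′ end, about 1 tag per transcript. Levels are in CPM, counts scaled for library depth with TMM factors, and levels of different genes are not compared.

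NRF2, encoded by Nfe2l2, is a transcription factor that is kept low by KEAP1, an adaptor that hands it to a CUL3 and RBX1 ubiquitin ligase. Oxidants and electrophiles modify KEAP1, NRF2 then accumulates, pairs with a small MAF protein and binds antioxidant response elements in front of its targets, a place for which the repressor BACH1 competes. Nqo1, Hmox1, Gclc, Gclm, Txnrd1 and Prdx1 are textbook targets. Gpx1, Sod2 and Cat are antioxidant enzymes with several other regulators, and Nox4 is not an antioxidant enzyme but a source of hydrogen peroxide. Working muscle makes oxidants in its mitochondria and at NADPH oxidases, and shivering in the cold is muscle work.

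The gastrocnemius label was met by its markers: the summed level of 10 fast-fibre genes was 1.19e+05 to 2.24e+05 CPM in every library, and no fast-fibre or slow-fibre gene was at 0 in any group. Deposited totals were 7.28e+06 to 2.58e+07 counts per library. On the first principal component, which held 21.7% of the variance, KO_RT replicates 1 and 3 and control_RT replicates 2 and 3 stood apart from the others. Summed intestinal epithelial markers, 14 genes of which muscle fibres also make some, such as the keratins Krt8 and Krt19, were at least 242 CPM in every library. They reached 1259 and 1061 CPM in control_4C replicates 3 and 6 and 964 CPM in control_RT replicate 4, against at most 546 CPM in any other library. Results that rest on these libraries are given with and without them. Ucp1 itself was not analysed here. Muscle RNA is a mixture of cell types, so fewer cells of a type and less RNA per cell cannot be told apart in any value that follows.

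Because the set is named for NRF2, the sequences in front of the genes are shown first. RefSeq promoter windows (build GRCr8, 250 bases before to 50 after the annotated start) matched 9 of the 10 members, with 10 windows in all, and were searched whole. Hmox1 had no window and was not searched. The core of the antioxidant response element, TGACNNNGC on either strand, occurred in 12.1% of all 33469 rat windows, and in those of 4 members, Gclm, Prdx1, Txnrd1 and Sod2. They are printed 5′ to 3′ on the gene's strand with the matching bases in capitals, all of them on the other strand.
Gclm, chr2:213031947-213031987, plus strand: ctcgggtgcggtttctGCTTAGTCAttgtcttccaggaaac
Prdx1, chr5:135383755-135383795, plus strand: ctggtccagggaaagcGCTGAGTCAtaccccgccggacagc
Txnrd1, chr7:22755958-22755998, minus strand: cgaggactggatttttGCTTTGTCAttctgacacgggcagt
Sod2, chr1:50050179-50050219, minus strand: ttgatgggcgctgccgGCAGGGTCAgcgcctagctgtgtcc
Nqo1, chr19:52220268-52220517, minus strand: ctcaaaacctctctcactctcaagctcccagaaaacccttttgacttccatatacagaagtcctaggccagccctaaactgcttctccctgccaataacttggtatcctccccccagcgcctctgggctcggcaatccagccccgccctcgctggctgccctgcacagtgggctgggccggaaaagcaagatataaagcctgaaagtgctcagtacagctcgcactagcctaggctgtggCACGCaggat

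The 250 bases before the start of Nqo1 are shown because Nqo1 carried the genotype difference, and the whole window held no TGACNNNGC match. It did hold the core of the xenobiotic response element, GCGTG on the other strand, 10 to 6 bases before the start (CACGC in capitals), a motif found in 29.7% of all windows and in those of 5 of the 9 members, Sod2, Nox4, Txnrd1, Gclc and Nqo1. The letters alone do not show that a factor binds, and elements farther upstream lie outside these windows.

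**Figure D1:**
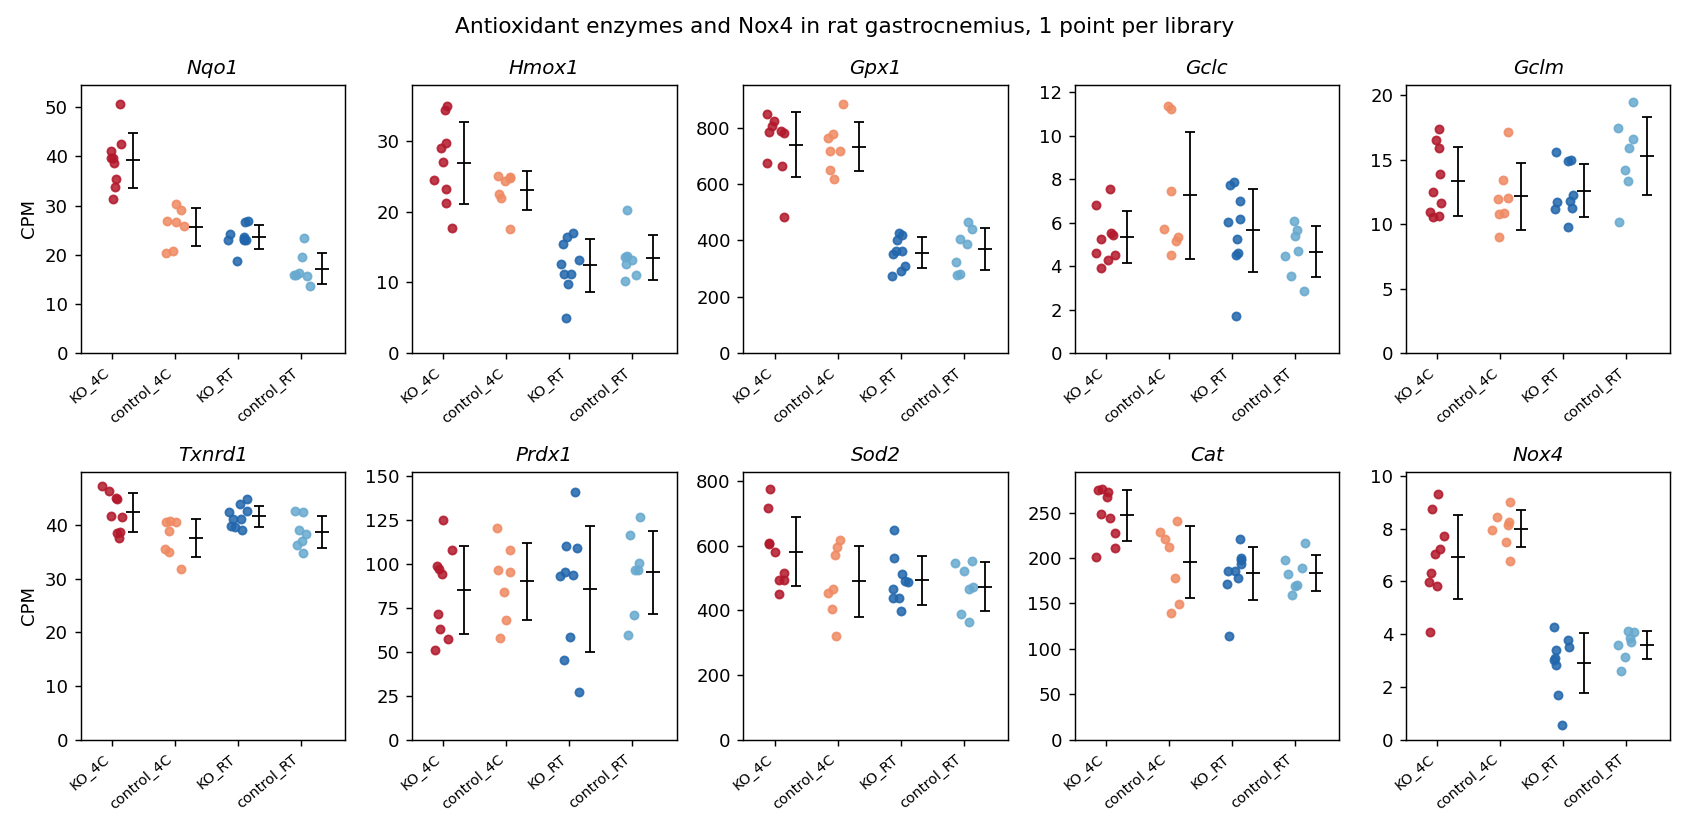
Level of each of the 10 genes in CPM (y axis from 0) in the 4 groups, 1 point per library, with the group mean and SD beside the points. Nqo1 lay at 31.3 to 50.6 CPM in KO_4C and at 20.4 to 30.3 CPM in control_4C, with no overlap, while Hmox1, Gpx1 and Nox4 were higher in the cold in both genotypes.

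Nqo1, an enzyme that reduces quinones by 2 electrons at the cost of NADH or NADPH, was higher in UCP1 KO muscle at both temperatures and higher in the cold in both genotypes. In KO_4C the lowest, median and highest libraries held 31.3, 39.7 and 50.6 CPM, and in control_4C they held 20.4, 26.6 and 30.3 CPM. In KO_RT they held 18.7, 23.3 and 26.9 CPM, and in control_RT they held 13.7, 15.9 and 23.4 CPM. Every KO_4C library was above every control_4C library, whereas at room temperature 4 of 9 KO_RT libraries were above all controls and control_RT replicates 1 and 4, at 23.4 and 19.5 CPM, lay inside the knockout range.

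The group means of Nqo1 were 39.2 ± 5.6 CPM in KO_4C, 25.7 ± 3.83 CPM in control_4C, 23.6 ± 2.4 CPM in KO_RT and 17.2 ± 3.24 CPM in control_RT (SD, n = 9, 7, 9 and 7). The neighbours in this order with overlapping libraries were control_4C and KO_RT, and KO_RT and control_RT. The log2 difference of KO against control was 0.61 ± 0.11 (SE) at 4 °C, a 1.52-fold level, and 0.46 ± 0.11 at room temperature, a 1.37-fold level. With each of the 32 libraries left out in turn it stayed between 0.55 and 0.65 at 4 °C and between 0.40 and 0.54 at room temperature. Without the 3 libraries highest in intestinal markers it was 0.60 at 4 °C and 0.49 at room temperature, and without the 4 libraries that stood apart it was 0.60 and 0.37.

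The cold contrasts of Nqo1 hold the same libraries as the contrasts it was chosen by, so they too are given as values with no test. In knockout muscle the log2 difference of KO_4C against KO_RT was 0.73 ± 0.10 (SE), and the groups did not overlap. In control muscle that of control_4C against control_RT was 0.58 ± 0.12, with 5 of 7 control_4C libraries above all control_RT libraries. The cold response in knockouts minus that in controls was 0.15 ± 0.15, a value no larger than its SE.

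Among the other 9 members, none differed between the genotypes past the threshold at either temperature, by edgeR or DESeq2. With edgeR 2 of them, Cat and Txnrd1, had an unadjusted p under 0.05 at 4 °C, and 0 had one at room temperature. Nqo1 was chosen for its genotype difference, so no count of calls is given with it. Over all 11594 genes tested, 0.0518% were called at 4 °C and 2.61% at room temperature. The median log2 difference of the 10 members, Nqo1 among them, was 0.15 at 4 °C and -0.03 at room temperature. Over all tested genes it was 0.02 and 0.00344, and because Nqo1 is a member nothing is read from this comparison.

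**Figure D2:**
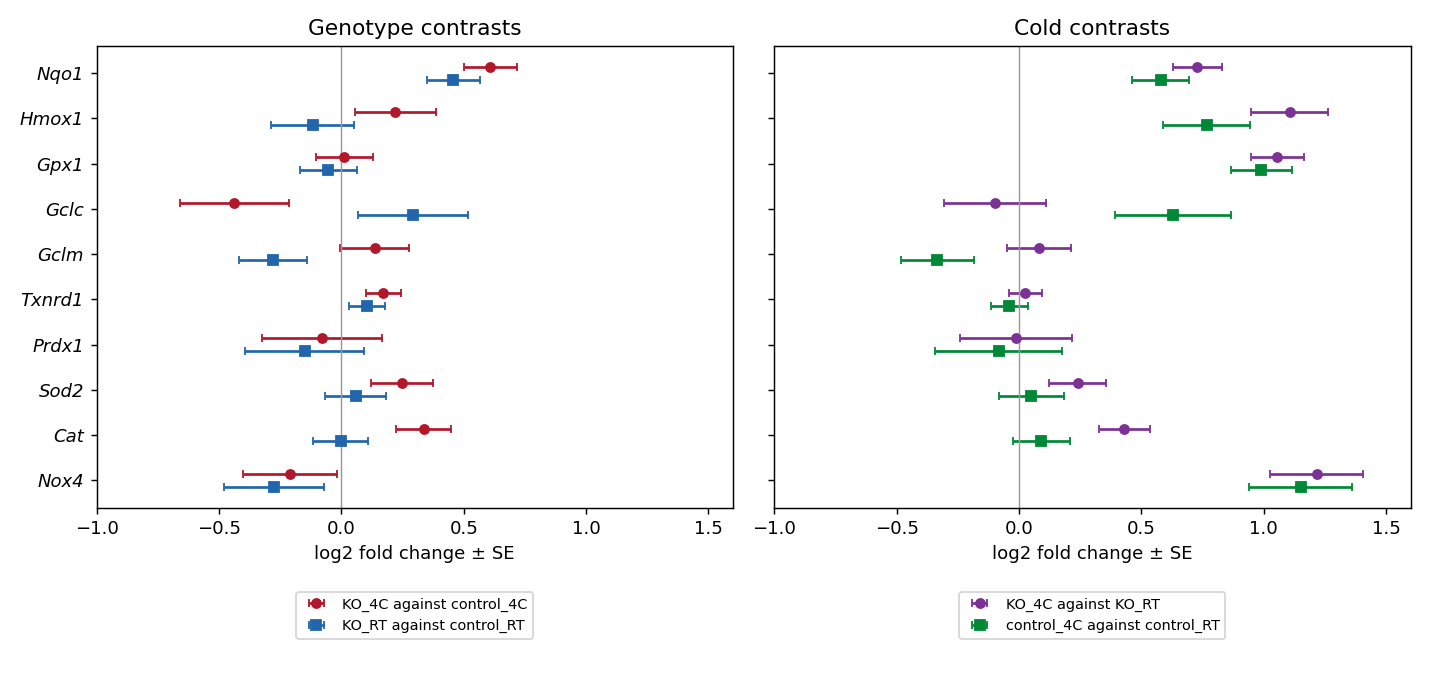
Log2 fold change with its SE (x axis) for each member, KO against control at 4 °C and at room temperature on the left, and 4 °C against room temperature in each genotype on the right. Nqo1 sits at 0.61 and 0.46 on the left, and Nqo1, Hmox1, Gpx1 and Nox4 lie right of 0 for both genotypes on the right.

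Catalase (Cat), which breaks down hydrogen peroxide in peroxisomes, came nearest to a genotype difference after Nqo1. KO_4C libraries held 202, 248 and 276 CPM (lowest, median, highest) and control_4C libraries 139.7, 212 and 240.4 CPM. All 9 KO_4C libraries were above the control_4C mean and 6 were above every control_4C library, yet the ranges overlapped. The log2 difference was 0.34 ± 0.11 with an adjusted p of 0.108 (edgeR), which misses the threshold, with a 95% interval of 0.11 to 0.56 before adjustment. At room temperature KO_RT averaged 183.1 ± 29.5 CPM and control_RT 183.5 ± 19.6 CPM (SD), a log2 difference of -0.00262 ± 0.11.

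Part of the Cat difference in the cold lay with 2 libraries. The lowest Cat values of control_4C, 139.7 and 149.5 CPM, were those of replicates 3 and 6, the same libraries that were highest in intestinal markers, and the next was 177.8 CPM. Without these and control_RT replicate 4 the log2 difference at 4 °C was 0.19 (adjusted p = 0.954, edgeR). The part of intestinal RNA in the Cat values was not tested.

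The glutathione genes gave no genotype difference past the threshold. Gclc, the catalytic subunit of glutamate-cysteine ligase and the rate-limiting step of glutathione synthesis, was low in every group, with 34 to 140 deposited counts in KO_4C and 50 to 140 in control_4C. KO_4C libraries held 3.92, 5.26 and 7.54 CPM, and control_4C libraries 4.51, 5.72 and 11.4 CPM. The ranges overlapped, and the top of the control range was made by replicates 3 and 6, at 11.2 and 11.4 CPM, with the other 5 between 4.51 and 7.45 CPM.

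The log2 difference of Gclc at 4 °C was -0.44 ± 0.22 (adjusted p = 0.358, edgeR). It was -0.08 (adjusted p = 0.997) without control_4C replicates 3 and 6 and control_RT replicate 4. At room temperature it was 0.29 ± 0.22 (adjusted p = 0.554), the opposite sign. Gclc and the intestinal markers were thus high in the same 2 control_4C libraries. Control_RT replicate 4, the next in intestinal markers at 964 CPM, held 6.07 CPM of Gclc, the highest of its group. The part of intestinal RNA in the Gclc values was not tested.

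**Figure D3:**
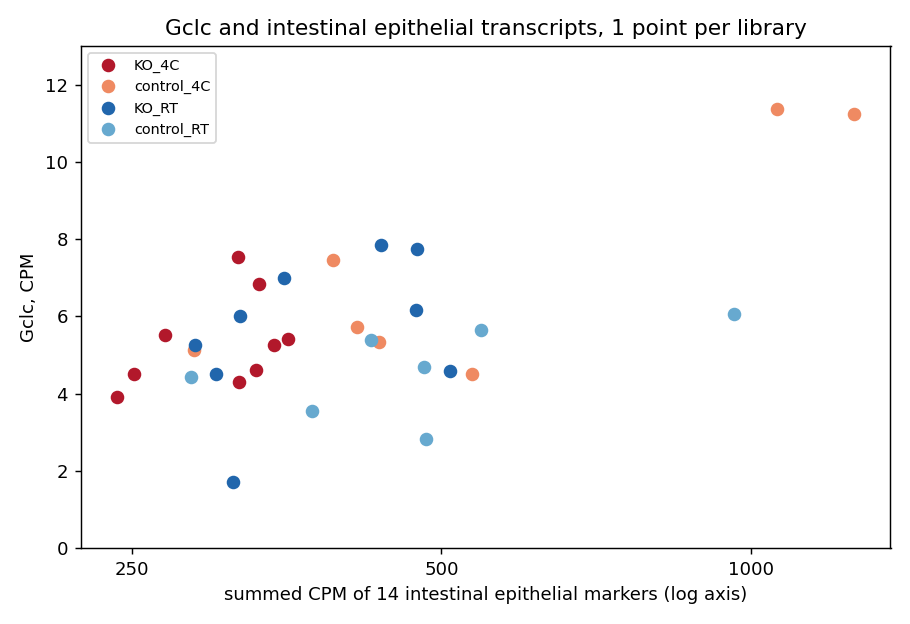
Gclc in CPM (y axis) against the summed CPM of 14 intestinal epithelial markers (x axis, log scale), 1 point per library, coloured by group. The 2 control_4C libraries at 1259 and 1061 CPM of markers hold 11.2 and 11.4 CPM of Gclc, and the remaining libraries hold at most 7.85 CPM.

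Gclm, the modifier subunit that raises the efficiency of glutamate-cysteine ligase, averaged 13.3 ± 2.69 CPM in KO_4C, 12.2 ± 2.59 in control_4C, 12.6 ± 2.04 in KO_RT and 15.3 ± 3.03 in control_RT (SD). Its genotype difference was 0.14 ± 0.14 at 4 °C (adjusted p = 0.727) and -0.28 ± 0.14 at room temperature (adjusted p = 0.297), both from edgeR. The subunits of the same enzyme therefore had opposite signs in each genotype comparison, none of them past the threshold. Gpx1, the glutathione peroxidase of the cytosol, averaged 739.5 ± 115.3 CPM in KO_4C and 733.3 ± 87.9 in control_4C, with a log2 difference of 0.01 ± 0.12 whose sign turned under several settings. At room temperature Gpx1 averaged 356 ± 54.7 CPM in KO_RT and 369 ± 75.6 in control_RT, a difference of -0.05 ± 0.12.

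Txnrd1, the cytosolic thioredoxin reductase that is kept running by NADPH, had a coefficient of variation of 4.79% to 9.35% within groups. This was the lowest of the members in every group but control_4C, where that of Nox4 was 8.91%. For Txnrd1, KO_4C libraries held 37.6, 41.6 and 47.3 CPM and control_4C libraries 31.8, 38.9 and 40.8 CPM. Of the 9 KO_4C libraries, 8 were above the control_4C mean and 6 above every control_4C library. The log2 difference was 0.17 ± 0.07 at 4 °C (adjusted p = 0.234) and 0.11 ± 0.07 at room temperature (adjusted p = 0.492, edgeR), small and not past the threshold. The 95% interval at 4 °C ran from 0.02 to 0.32 on the log2 scale before adjustment.

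Prdx1, a peroxiredoxin that scavenges peroxide with electrons from thioredoxin, was among the most variable, with 51.1 to 125 CPM in KO_4C, 57.6 to 120.6 in control_4C, 26.9 to 140.8 in KO_RT and 59.6 to 126.4 in control_RT. Its genotype differences, -0.08 ± 0.24 and -0.15 ± 0.24, were well inside that spread. Prdx1 has near-identical copies in rodent genomes, and how the counting treated shared reads is not given in the sources used here, so its level is uncertain. Sod2, the manganese superoxide dismutase of the mitochondrial matrix, held 451, 579 and 774.1 CPM in KO_4C and 322, 467 and 617 CPM in control_4C. The groups overlapped, 8 of 9 KO_4C libraries were above the control_4C mean, and the log2 difference was 0.25 ± 0.13 (adjusted p = 0.356, edgeR). Without the 3 libraries highest in intestinal markers it was 0.14, and at room temperature it was 0.06 ± 0.13.

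Hmox1, which splits haem into biliverdin, iron and carbon monoxide, and Nox4, which makes hydrogen peroxide without needing an activating stimulus, also showed no genotype difference past the threshold. For Hmox1 it was 0.22 ± 0.17 at 4 °C (adjusted p = 0.589) and -0.12 ± 0.17 at room temperature (adjusted p = 0.782). For Nox4 it was -0.21 ± 0.19 at 4 °C (adjusted p = 0.678) and -0.27 ± 0.20 at room temperature (adjusted p = 0.532), all from edgeR. Nox4 values rest on 4 to 176 deposited counts in knockout and 28 to 154 in control libraries, so counting error is part of their spread.

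More members passed the test for cold than for genotype. Nqo1 is left out of the counts, because its cold values are not independent of its choice. In knockout muscle 4 of the other 9 members were called as higher at 4 °C by edgeR's quasi-likelihood F test. These were Hmox1, Gpx1, Cat and Nox4, and none was called as lower. In control muscle 3 of the 9 were called as higher, Hmox1, Gpx1 and Nox4, and none as lower. Cold called 13.8% of all tested genes in knockouts, 7.49% of them as higher, and 20.7% in controls, 12.4% as higher. The median log2 cold response of all members, Nqo1 among them, was 0.34 in both genotypes. Over all tested genes it was 0.01 in knockouts and 0.03 in controls. In controls the median of the members lies between Cat and Nqo1. Without Nqo1 the middle member is Sod2 in knockouts and Cat in controls, both below 0.34, so nothing is read from these medians. The calls of Hmox1, Gpx1, Nox4 and Cat kept their side of the threshold under every alternative tried and with every library left out.

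Hmox1 rose 2.15-fold in knockouts and 1.7-fold in controls. KO_4C libraries held 17.7, 27 and 34.97 CPM and KO_RT libraries 4.88, 12.6 and 16.97 CPM, with no overlap. In controls, control_4C libraries held 17.5, 24.4 and 25.04 CPM and control_RT libraries 10.2, 13.2 and 20.2 CPM, an overlap made by control_RT replicate 1. The log2 response was 1.11 ± 0.16 in knockouts (adjusted p = 6.49e-06) and 0.77 ± 0.18 in controls (adjusted p = 0.00218), by edgeR.

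Gpx1 rose 2.08-fold in knockouts and 1.99-fold in controls. KO_4C libraries held 482.6, 784.4 and 849.6 CPM and KO_RT libraries 275.1, 361 and 425.6 CPM. Control_4C libraries held 619.9, 719 and 885.3 CPM and control_RT libraries 277.9, 389 and 466.4 CPM. No cold library overlapped a room-temperature library of its genotype, and the log2 response was 1.06 ± 0.11 in knockouts (adjusted p = 6.19e-08) and 0.99 ± 0.12 in controls (adjusted p = 2.26e-06, edgeR).

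Nox4 showed the largest fold response of the set, 2.32-fold in knockouts and 2.22-fold in controls. KO_4C libraries held 4.10, 7.03 and 9.33 CPM and KO_RT libraries 0.574, 3.1 and 4.28 CPM, and 8 of 9 KO_4C libraries were above every KO_RT library. Control_4C libraries held 6.76, 8.13 and 8.99 CPM and control_RT libraries 2.62, 3.68 and 4.13 CPM, with no overlap. The log2 response was 1.22 ± 0.19 in knockouts (adjusted p = 2.2e-05) and 1.15 ± 0.21 in controls (adjusted p = 0.00025, edgeR).

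Groups that did not overlap, with cold higher, were found for Nqo1, Hmox1 and Gpx1 in knockouts and for Gpx1 and Nox4 in controls. Over all tested genes such groups made up 0.975% in knockouts and 3.42% in controls. Between genotypes Nqo1 at 4 °C was the only member without overlap, where 0.0604% of all tested genes were higher in KO_4C without overlap. Nqo1 was chosen for its genotype difference, so nothing is read from these shares for Nqo1.

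Cat rose with cold in knockouts, by 0.43 ± 0.10 on the log2 scale (adjusted p = 0.00401, edgeR), with 7 of 9 KO_4C libraries above every KO_RT library. In controls the response was 0.09 ± 0.12 (adjusted p = 0.63), and 0.20 (adjusted p = 0.241) without the 3 libraries highest in intestinal markers. The difference of the responses was 0.34 ± 0.16 (adjusted p = 0.344), so the responses of the genotypes were not shown to differ. KO_RT replicate 1, at 114.4 CPM, was the lowest Cat value of its group, and the knockout response was called without it as well.

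The other members did not pass the test with cold in either genotype. Gclc in controls came closest, at 0.63 ± 0.24 (adjusted p = 0.0542, edgeR), with 7.26 ± 2.91 CPM in control_4C and 4.66 ± 1.16 CPM in control_RT (SD). It passed with DESeq2 (adjusted p = 0.0418) and when any 1 of 5 libraries was left out (KO_RT replicate 1, control_RT replicate 4, or control_4C replicates 2, 5 or 7), and it was 0.34 (adjusted p = 0.347) without the 3 libraries highest in intestinal markers. Gclm in controls was -0.33 ± 0.15 (adjusted p = 0.106), and it passed, as lower, without control_RT replicate 2 (-0.42, adjusted p = 0.0448), without control_4C replicate 4 (-0.45, adjusted p = 0.0306) and with 1 surrogate variable. In knockouts these responses were -0.10 ± 0.21 for Gclc and 0.08 ± 0.13 for Gclm. Sod2 responded by 0.24 ± 0.12 in knockouts (adjusted p = 0.18) and 0.05 ± 0.13 in controls, and Txnrd1 and Prdx1 by no more than 0.08 in either direction.

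In the interaction, the cold response of knockouts minus that of controls, 0 of the 9 members other than Nqo1 were called by edgeR, where 0.0259% of all tested genes were. Those with an unadjusted p under 0.05 were Gclc at -0.73 ± 0.32 (adjusted p = 0.311), Gclm at 0.42 ± 0.20 (adjusted p = 0.3625) and Cat at 0.34 ± 0.16. DESeq2 called none of the 9 either.

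Libraries differed in how many members were at the edge of their group. KO_RT replicate 1, which stood apart on the first principal component, was the lowest of its group in 4 members (Hmox1, Gclc, Cat and Nox4), and KO_RT replicate 3 in another 4 (Gpx1, Txnrd1, Prdx1 and Sod2). KO_4C replicate 7 was the lowest in 4 members (Hmox1, Gpx1, Prdx1 and Cat) and the highest in 4 others (Gclm, Txnrd1, Sod2 and Nox4). After the group means were subtracted, Pearson's r between members over the 32 libraries had a median of 0.10 over the 45 pairs and ran from -0.31 for Gpx1 and Nox4 to 0.53 for Gclc and Nox4. For the last pair KO_RT replicate 1 was the lowest of its group in both genes, with only 12 and 4 deposited counts, and r was not computed without it. Nqo1 was nearest to Gpx1 (r = 0.34) and Hmox1 (r = 0.31), and its r with Gclc and Gclm was 0.006 and -0.02. The members therefore varied little together within groups, where the points share library depth and tissue makeup.

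The regulators of the pathway were read next. Nfe2l2 transcripts did not pass the test for cold in knockouts, at 30.2, 37.1 and 42.6 CPM in KO_4C and 25.4, 33.9 and 36.6 CPM in KO_RT, a log2 response of 0.18 ± 0.10 (adjusted p = 0.274, edgeR). In control muscle they rose, at 36.4, 41.5 and 56.5 CPM in control_4C and 24.7, 25.2 and 42.7 CPM in control_RT, by 0.60 ± 0.12 (adjusted p = 0.000414). Only control_RT replicate 4 lay within the control_4C range. The difference of the responses was -0.43 ± 0.15 (adjusted p = 0.2155), and it reached -0.54 (adjusted p = 0.0493) without control_RT replicate 4. Nfe2l2 did not differ between genotypes past the threshold, at -0.26 ± 0.11 at 4 °C (adjusted p = 0.225) and 0.17 ± 0.11 at room temperature (adjusted p = 0.469). The highest Nfe2l2 libraries of the controls, control_4C replicates 3 and 6 at 49.3 and 56.5 CPM and control_RT replicate 4 at 42.7 CPM, were the 3 highest in intestinal markers. Without these 3 the genotype difference was -0.14 at 4 °C (adjusted p = 0.961) and 0.28 at room temperature (adjusted p = 0.0832), and the cold response in controls was 0.60 (adjusted p = 0.000333).

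Keap1 averaged 54.3 ± 5.93 CPM in KO_4C, 53.5 ± 5.52 in control_4C, 57.3 ± 8.01 in KO_RT and 63.8 ± 5.09 in control_RT (SD). It fell with cold in controls by 0.25 ± 0.09 (adjusted p = 0.0463, edgeR), a call that ended with any of 13 single libraries left out (adjusted p up to 0.124, without control_RT replicate 2). It was -0.08 ± 0.08 in knockouts. Bach1 was too low to be tested, at 0 to 0.795 CPM in any library. Cul3, the scaffold of the ligase that removes NRF2, held 148.3, 207 and 232 CPM in KO_RT and 147.9, 162 and 179.5 CPM in control_RT, higher in the knockouts by 0.27 ± 0.08 (adjusted p = 0.0452), and fell with cold in knockouts by 0.33 ± 0.07 (adjusted p = 0.00183). The genotype call of Cul3 at room temperature ended with any of 25 of the 32 libraries left out (adjusted p up to 0.123), while its log2 value stayed positive.

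**Figure D4:**
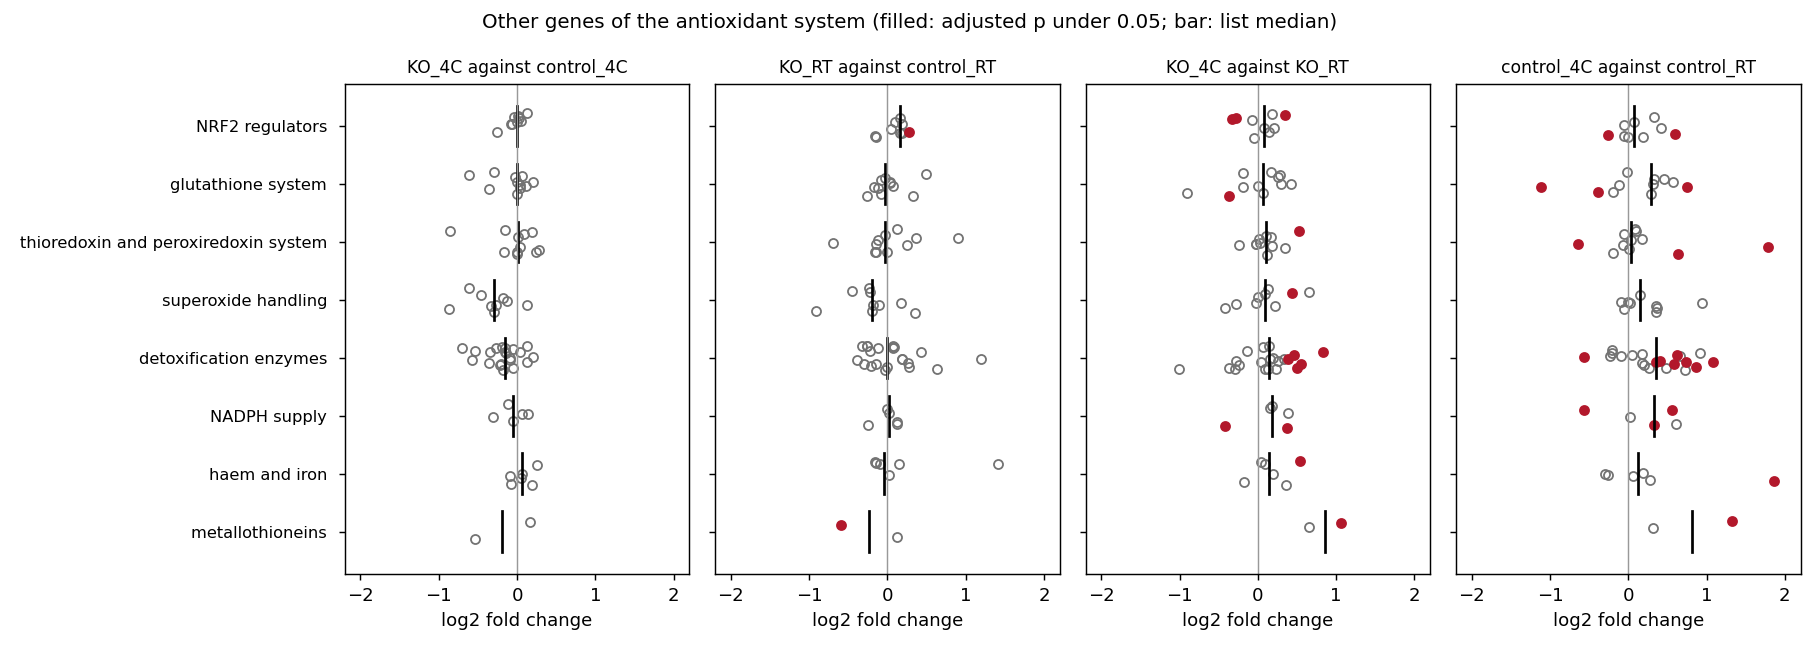
Log2 fold change (x axis) of the 74 tested genes of 8 further antioxidant lists in 4 contrasts, 1 point per gene, filled where the adjusted p is under 0.05, with a bar at the list median. No point is filled at 4 °C between genotypes, 2 are at room temperature, 15 are for cold in knockouts and 21 for cold in controls.

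The members were set in the wider pathway with 8 lists of 91 genes, of which 77 were in the table and 74 tested. At 4 °C none of the 74 was called between genotypes by edgeR, 9 had an unadjusted p under 0.05, and DESeq2 called 2, Gss and Mgst2. At room temperature Cul3 was higher in knockouts and Mt3, a metal-binding metallothionein, lower by 0.59 ± 0.16 (adjusted p = 0.0391), a call that ended with any of 8 room-temperature libraries left out (adjusted p up to 0.1245). These 2 edgeR calls were 2.7% of the 74, near the 2.61% of all tested genes called at room temperature. DESeq2 called Ftl1 at room temperature as well. With cold, 11 rose and 4 fell in knockouts, and 15 rose and 6 fell in controls, 20.3% and 28.4% of those tested against 13.8% and 20.7% of all genes. In the interaction edgeR and DESeq2 called none, and 10 had an unadjusted p under 0.05 by edgeR. A gene named below for cold in 1 genotype only was not called in the other by edgeR, which does not show that the responses differed. Calls were followed under the alternatives for the named genes only, so those of Gsta1 in both genotypes and of Cbr3 and Gstm2 in controls were not checked. With 1 surrogate variable the cold calls of Rbx1 and Blvrb in knockouts and of Gsto1, Idh1, Txnip, Abcc4, Chac1, Glrx and Keap1 in controls ended (adjusted p 0.0504 to 0.316), as did the genotype calls of Cul3 and Mt3 at room temperature (0.0697 and 0.061). Without the 4 libraries that stood apart, the cold calls of Mgst1 and Rbx1 in knockouts and of Abcc4, Chac1, Glrx and Keap1 in controls ended (adjusted p 0.0523 to 0.0925). Without the 3 libraries highest in intestinal markers, those of Chac1, Glrx5, Tkt and Txnip in controls and the genotype calls of Cul3 and Mt3 ended (0.0555 to 0.151). With the compared groups fitted alone, Gstz1 and Mgst1 in knockouts, Tkt in controls, and Cul3 and Mt3 between genotypes were not called (0.0532 to 0.159). With no filter on low counts Cul3 was not called between genotypes (0.0592).

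Of the detoxification enzymes, the longest list, 5 of 21 rose with cold in knockouts, and 7 rose and 1 fell in controls, 23.8% and 38.1% called against 13.8% and 20.7% of all genes. Ephx1, the microsomal epoxide hydrolase, rose by 0.83 ± 0.18 in knockouts (adjusted p = 0.00114) and 0.86 ± 0.20 in controls (adjusted p = 0.00172). Mgst1, a membrane-bound glutathione transferase, rose by 0.56 ± 0.18 in knockouts (adjusted p = 0.0335) and by 1.08 ± 0.20 in controls (adjusted p = 0.00034). Its knockout call ended with any of 7 knockout libraries left out (adjusted p up to 0.081). Gsto1, an omega-class transferase, rose by 0.39 ± 0.08 in knockouts and 0.35 ± 0.09 in controls. Gstz1, a zeta-class transferase, rose in knockouts by 0.47 ± 0.14 and Mgst2 in controls by 0.73 ± 0.18. Abcc4, an exporter of conjugates, fell in controls by 0.56 ± 0.17 (adjusted p = 0.0196, edgeR), a call that ended without control_RT replicate 2 (adjusted p = 0.0531).

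In the thioredoxin list 1 of 11 tested genes rose with cold in knockouts, and 2 rose and 1 fell in controls. That is 9.09% and 27.3% called, against 13.8% and 20.7% of all genes. Msrb1, a methionine sulphoxide reductase, rose in knockouts by 0.52 ± 0.14 (adjusted p = 0.0124). In controls Txn1, thioredoxin itself, rose by 1.79 ± 0.45 (adjusted p = 0.0056), and Txnip, which binds and inhibits thioredoxin, by 0.63 ± 0.21 (adjusted p = 0.0324). The Txnip call ended with any of 6 control libraries left out (adjusted p up to 0.0794). Txn1 libraries ran from 116.2 to 396.9 CPM in control_4C and from 12.7 to 175.9 CPM in control_RT, a wide and overlapping spread. Txnrd2, the mitochondrial thioredoxin reductase, fell in controls by 0.64 ± 0.12 (adjusted p = 0.000434, edgeR), whereas Txnrd1 moved by -0.04 ± 0.08. Txn1 has close copies in rodent genomes, and the same limit on shared reads holds for it as for Prdx1.

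In the glutathione list of 11 tested genes, Glrx5, a mitochondrial glutaredoxin of iron-sulphur assembly, fell in both genotypes, by 0.37 ± 0.12 in knockouts and 0.39 ± 0.13 in controls. The calls ended with any of 4 libraries left out in knockouts (adjusted p up to 0.07) and any of 5 in controls (adjusted p up to 0.0923). Glrx, the cytosolic glutaredoxin, rose in controls by 0.75 ± 0.21 (adjusted p = 0.00939), and Chac1, which degrades glutathione, fell by 1.11 ± 0.39 (adjusted p = 0.0403), a call that ended with any of 8 control libraries left out (adjusted p up to 0.0852). Of the 5 tested genes of NADPH supply, Tkt, a transketolase of the pentose phosphate pathway, rose by 0.37 ± 0.10 in knockouts and 0.33 ± 0.11 in controls, and Idh1, the cytosolic isocitrate dehydrogenase, rose in controls by 0.56 ± 0.16. The control call of Tkt ended with any of 7 control libraries left out (adjusted p up to 0.0972). Malic enzyme (Me1) fell in both, by 0.42 ± 0.10 in knockouts (adjusted p = 0.00526) and 0.56 ± 0.12 in controls (adjusted p = 0.000871, edgeR).

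Among genes of haem and iron, Blvrb, a biliverdin reductase, rose in knockouts by 0.54 ± 0.15 (adjusted p = 0.012) and was 0.19 ± 0.17 in controls. Ftl1, the ferritin light chain that stores iron, rose in controls by 1.86 ± 0.44 (adjusted p = 0.00267), on levels of 2.55 to 4.74 CPM in control_4C and 0 to 2.3 CPM in control_RT, and its reads can also be shared with near-identical copies. Of the metallothioneins, Mt3 rose in knockouts by 1.07 ± 0.15 (adjusted p = 6.59e-06) and Mt2A in controls by 1.32 ± 0.33 (adjusted p = 0.005). In the other genotype each was also higher in the cold on average, without a call. Mt3 averaged 20.3 CPM in control_4C and 16.3 in control_RT, and Mt2A 11.8 CPM in KO_4C and 7.36 in KO_RT. Sqstm1, an autophagy receptor that can draw KEAP1 away from NRF2, rose in knockouts by 0.35 ± 0.09, and Rbx1 fell there by 0.28 ± 0.08, a call lost without the 4 libraries that stood apart. Of the superoxide list edgeR called only Cybb, the oxidase subunit of phagocytes, with cold in knockouts, at 0.43 ± 0.12 (adjusted p = 0.0146, edgeR), and not without KO_4C replicate 2 (adjusted p = 0.0509). DESeq2 called Ccs of that list too, the copper chaperone of superoxide dismutase.

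Markers of other cells moved with cold beside these genes. Over all tested genes cold called 13.8% in knockouts and 20.7% in controls, 7.49% and 12.4% as higher. Of 11 macrophage markers, 6 rose with cold in knockouts and 5 in controls, and their summed level was 155 to 289 CPM in KO_4C, 187.5 to 303 in control_4C, 106 to 149 in KO_RT and 128 to 204 in control_RT. Of 9 endothelial markers, 4 rose in knockouts and 3 in controls, with sums of 334 to 417 CPM in KO_4C, 267 to 392 in control_4C, 252 to 342 in KO_RT and 240.9 to 321 in control_RT. Slow-fibre markers rose in 8 of 10 with cold in each genotype, and fast-fibre markers fell in 5 of 10 in knockouts and 6 of 10 in controls. Adipocyte markers rose in 2 of 8 in knockouts and 5 of 8 in controls, erythroid entries in 1 and 4 of 5, and smooth muscle and pericyte markers in 0 and 3 of 7. The erythroid gene Hba-a2 has 2 entries, both among the 4 called in controls. Of 7 fibroblast markers 1 fell in knockouts and 2 rose in controls, and of 13 intestinal markers 0 and 3 rose. The fibroblast list, at 14.3% and 28.6% called, and the intestinal list in controls, at 23.1%, lay near the share over all genes. Macrophages express Hmox1 and Cybb and endothelial cells express Nox4, no marker of either list was at 0 in any group, and the part of these cells in the cold responses was not tested. Between the genotypes no marker of macrophages, endothelium or either fibre type passed the test at either temperature by edgeR or DESeq2. Of these 40 markers, 6 had an unadjusted p under 0.05 at 4 °C and 5 at room temperature by edgeR. At 4 °C 4 of the 6 were endothelial, a list of 9 with a median log2 difference of 0.26. Of the adipocyte list, Fabp4 was called as higher in KO_RT than in control_RT by edgeR, and DESeq2 added Plin1 at room temperature and Lipe at 4 °C. Intestinal markers had a median log2 difference of -1.03 at 4 °C, where 12 of 13 had an unadjusted p under 0.05, edgeR called 0 and DESeq2 8. The part of these cells in the genotype values was not tested.

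**Figure D5:**
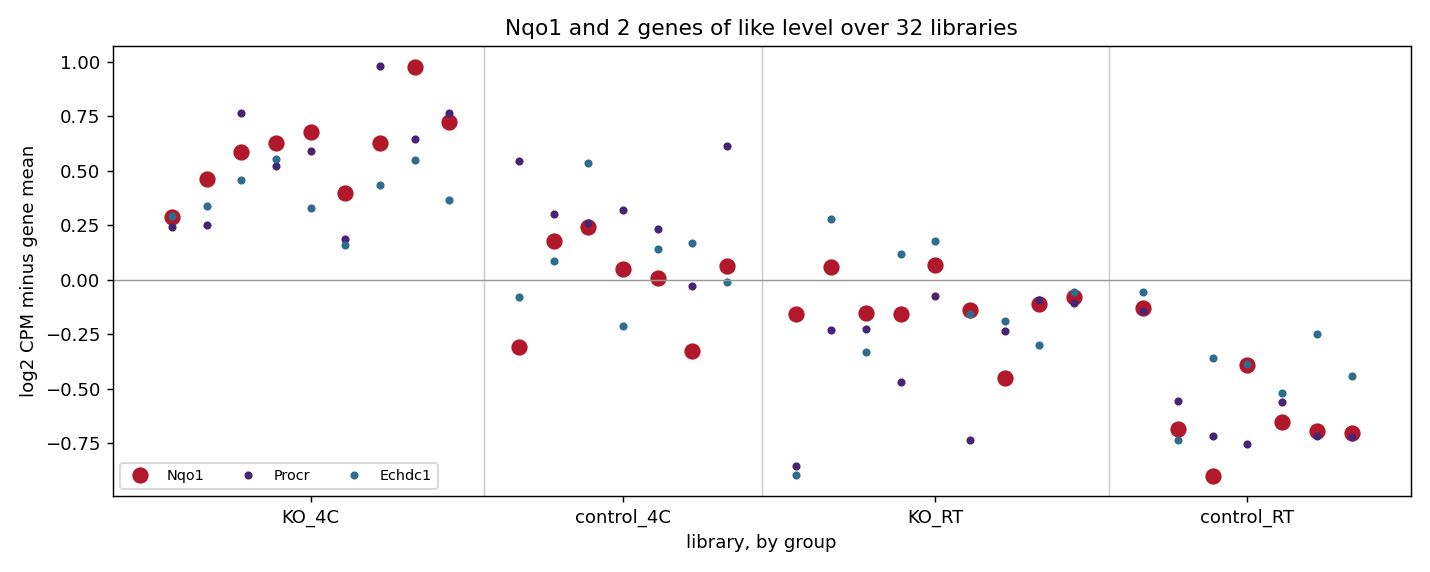
Log2 CPM minus the mean of each gene over 32 libraries (y axis) for Nqo1, Procr and Echdc1, 1 column of points per library, by group. The group mean of each is highest in KO_4C and lowest in control_RT, and Nqo1 lies above its mean in all 9 KO_4C libraries.

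Genes whose level followed Nqo1 closely over the 32 libraries were ranked by Pearson's r among 7117 tested genes with a symbol and a mean of at least 5 CPM. Procr (Pearson's r = 0.82, Spearman's rho = 0.81) and Echdc1 (0.81 and 0.86) were among the 4 highest. Procr encodes the endothelial protein C receptor and Echdc1 an enzyme that removes a side product of fatty acid synthesis. After subtraction of the group means r was 0.44 for Procr and 0.43 for Echdc1, where the libraries share depth and tissue makeup. Procr averaged 12.6 ± 2.42 CPM in KO_4C, 10.7 ± 1.58 in control_4C, 6.75 ± 1.26 in KO_RT and 5.57 ± 0.947 in control_RT (SD), the same order of groups as Nqo1. These genes were chosen for their likeness, so no test is given.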

How the data were processed

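Per the labels, RNA of 32 gastrocnemius libraries was sequenced with Lexogen QuantSeq. The authors deposited raw counts per Ensembl gene and a second table of normalised signal, which is those counts divided by 1 size factor per library (0.523 to 2.06) and served only for checks. The submitters' processing notes name R 3.4.3, DESeq2 1.18.1 and Rnor_6.0; the sources used here do not give the aligner, counting tool or strand setting. No deposited count was odd, for which the sources used here give no reason. The counts were used unchanged.

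Counts were fitted over all 32 libraries with edgeR 4.0.16 (R 4.3.3): filterByExpr (minimum count 10), TMM, 1 mean per group, robust quasi-likelihood F test, and Benjamini-Hochberg adjustment over all 11594 tested genes of a contrast, called at an adjusted p under 0.05; 1307 genes were not tested. The script was checked on simulated counts. SE is the absolute log2 fold change over the square root of F, and 95% intervals use the t distribution. Members and lists were chosen with earlier results of these data known, and the markers too. The rule named all members, Nfe2l2, Keap1, Bach1, the 3 genes of smallest p per list, contrast and direction past the threshold, and the 4 genes of highest Pearson r with Nqo1 (log2 CPM, prior count 2), of which 2 are not reported here. Correlations between members used log2(CPM + 0.5). Replicate numbers are those of the sample descriptions, found through the titles; 2 columns of KO_RT matched the title of one sample and the description of another, and are called replicates 1 and 2, the numbers left over, as names only. Libraries of a group differed by more than sampling noise (smallest chi-square per degree of freedom 11.4). Labels do not state that samples of a group are separate animals, so p-values measure the spread between samples. Promoters came from RefSeq (GRCr8); their coordinates are not those of the authors' build. The alternatives were RLE factors, TMM without the 20 most abundant genes, no filter, counts divided by 2, DESeq2 1.42.0, 1 surrogate variable (sva 3.50.0), a fit of only the groups compared, a replicate block, each library left out, and leaving out the 4 libraries that stood apart. Leaving out the 3 libraries highest in intestinal markers was chosen after seeing the data.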

Additional observations from a re-analysis of the deposited data

Results flagged for a closer look

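In 40 groups (10 members in 4 groups each), a library was looked for whose gap to its nearest neighbour, divided by the range of the group, exceeded Dixon's 95% critical value, which chance exceeds in about 1 group in 20. It occurred in 4 groups.

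Nqo1 in KO_RT replicate 7 was 18.7 CPM, far below the next library at 22.9 CPM, and this library lay nearest to the control_RT values. Cat in KO_RT replicate 1 was 114.4 CPM, with the next at 171 CPM, in a library that also held the lowest Hmox1, Gclc and Nox4 of its group and stood apart on the first principal component.

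Hmox1 in control_4C replicate 5 was 17.5 CPM, with the next at 21.98 CPM, and Hmox1 in control_RT replicate 1 was 20.2 CPM, with the next at 13.7 CPM. The second of these libraries also held the highest Nqo1 of control_RT, 23.4 CPM. The cold response of Hmox1 in controls was called with either library left out.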

How the results depend on the processing

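The cold calls of Hmox1, Gpx1 and Nox4 in both genotypes, and of Cat in knockouts, held with any library left out. In controls Gclc or Gclm was added with some libraries left out. Between genotypes none of the 9 members other than Nqo1 was called under any setting. For Nqo1, chosen for its genotype difference, no calls are counted. The deviations of same-numbered libraries from their group means had r of -0.29 to 0.22. Libraries of different numbers were not compared, so these values cannot tell whether the numbers pair the samples. Between genotypes the replicate block gave 79 genes at room temperature and 0 at 4 °C. With it Cul3 and Mt3 at room temperature (adjusted p 0.115 and 0.0993) and Abcc4 with cold in controls (0.0534) were not called, and Gclc with cold in controls was (0.0458).

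Counts over all genes between genotypes depended on the setting. At room temperature 303 genes became 0 (compared groups alone), 574 (DESeq2), 708 (without the 4 libraries) and 80 to 792 with libraries left out. At 4 °C 6 became 3 (no filter), 81 (counts divided by 2), 121 (RLE), 125 (without the 20 most abundant genes), 428 (DESeq2), 0 (compared groups alone, or without the 3 libraries) and 0 to 556. The interaction count of 3 became 1 (no filter, or without the 20 most abundant genes), 95 (surrogate variable), 107 (DESeq2), 288 (without the 4 libraries) and 0 to 226, its member count 0 throughout. With libraries left out cold called 1331 to 1709 genes in knockouts and 1806 to 2827 in controls, and under the other settings 1330 to 1822 in knockouts and 1468 (surrogate variable) to 2687 in controls.

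Signs turned only for values near 0, none called. Gpx1 at 4 °C was -0.0022 (RLE), -0.0040 (without the 20 most abundant genes), -0.0022 (counts divided by 2), -0.0035 (groups alone), -0.019 (block), -0.020 (without the 3 libraries), -0.0021 (DESeq2) and -0.044 to 0.067 with libraries left out. With the surrogate variable, cold gave -0.011 for Gclm and 0.019 for Keap1 in knockouts, and -0.063 for Sod2 and -0.070 for Cat in controls. Without the 4 libraries, Cat at room temperature was 0.067, Keap1 with cold in knockouts 0.011, Sod2 with cold in controls -0.012, and the interaction -0.052 for Prdx1 and -0.0063 for Nox4. Prdx1 with cold was 0.064 in knockouts (block), and without the 3 libraries 0.0031 in controls and -0.014 in the interaction. With libraries left out, the ranges were -0.058 to 0.045 for Cat and -0.0082 to 0.082 for Sod2 at room temperature, -0.028 to 0.066 for Keap1 at 4 °C, -0.14 to 0.10 for Prdx1 and -0.0069 to 0.042 for Txnrd1 with cold in knockouts, -0.023 to 0.13 for Sod2 with cold in controls, and -0.0080 to 0.13 for Gpx1, -0.057 to 0.15 for Nox4 and -0.050 to 0.19 for Prdx1 in the interaction. Depth limits Gclc and Nox4 most, with as few as 12 and 4 deposited counts in a library.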
